A study of Caenorhabditis elegans with 24 samples.

Results

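The aminoacyl-tRNA synthetases of C. elegans were taken as all genes whose WormBase name is a single letter followed by ars- and a number. The rule found 32 genes, and all 32 were present in both deposited tables, among 14206 genes in the table of germline nuclei and whole worms and 12958 genes in the table of HSF-1 depletion. By textbook knowledge, 16 of them encode cytosolic enzymes, 12 encode mitochondrial enzymes, and the remaining 4 (gars-1, hars-1, kars-1 and tars-1) serve both compartments from a single gene. The number in the name is not a guide to the compartment in every case, since aars-1 and vars-1 are the mitochondrial alanyl and valyl enzymes and aars-2 is the cytosolic alanyl enzyme. The cytosolic valyl enzyme is named glp-4 and therefore falls outside the rule. For 11 amino acids the rule found both a cytosolic and a mitochondrial gene.

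Aminoacyl-tRNA synthetases join each amino acid to its own tRNA, the step that supplies the ribosome with charged tRNA. Cytosolic enzymes serve the translation of nuclear-encoded mRNAs, whereas the mitochondrial enzymes are made in the cytosol from nuclear genes, imported, and charge the tRNAs used to translate the few proteins encoded by mitochondrial DNA. Uncharged tRNA that builds up when amino acids are short is sensed by the kinase GCN-2, and germ cells, which make the proteins of gametes and embryos, are known for high rates of protein synthesis.

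RNA was measured in 24 polyA-enriched libraries, 3 in each of 8 groups. The first 4 groups were enriched germline nuclei and whole worm lysate of daf-2(e1370) animals (strain JTL642), which have reduced insulin/IGF-1 signaling, and the same 2 materials of animals with wild-type daf-2 (strain JTL621). Pooled worms were lightly fixed in dimethylformamide before homogenization, after which both the nuclei and the lysate were saved. The other 4 groups were whole daf-2(e1370) animals of strain JTL642 kept on 1 mM auxin to deplete HSF-1, or on 0.25% ethanol as control, for 16 h from the young adult stage or for 88 h from egg lay. Animals of all 8 groups, controls and wild type included, carried HSF-1 tagged with a degron and GFP (ljt3[hsf-1::degron::gfp]) and the transgene ieSi38, in which the sun-1 promoter drives TIR1::mRuby in the germline. JTL621 also carried unc-119(ed3), and JTL642 carried daf-2(e1370). Nuclei and lysate came from young adults, and the study describes its replicates as biological.

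Values were log2 CPM, that is reads of a gene scaled to the size of its library, and were compared gene by gene with limma over all genes kept and adjusted by the Benjamini-Hochberg procedure, with a threshold of 0.05. Nuclei libraries held 13.9 to 19.3 M reads, of which ribosomal RNA genes took 37.8 to 72.8%, whereas whole worm libraries held 21.9 to 28.8 M reads with 9.31 to 35.0% from those genes, and the depletion libraries 20.9 to 38.0 M reads with 1.68 to 8.10%. The median synthetase rested on 267 reads in a daf-2 nuclei library, 303 in a wild-type nuclei library, and 1995 to 3877 in the other groups. The lowest was 0 reads, for wars-1 in the third daf-2 nuclei library. Of 14 germ cell marker genes, 1 was higher and 7 were lower in daf-2 nuclei than in daf-2 worms, and 0 were higher and 5 lower in wild-type nuclei than in wild-type worms, so these markers were not raised in the nuclei as a group. Among all genes 21.3% were higher and 32% lower in daf-2 nuclei, and 15.9% were higher and 19.4% lower in wild-type nuclei. Their summed level was 874 to 1178 CPM in daf-2 nuclei, 688 to 919 CPM in wild-type nuclei, 1061 to 1689 CPM in daf-2 worms and 877 to 1239 CPM in wild-type worms. Intestine markers summed to 385 to 733 CPM in daf-2 nuclei, 442 to 528 CPM in wild-type nuclei, 3333 to 6909 CPM in daf-2 worms and 1385 to 2664 CPM in wild-type worms. Body wall muscle markers summed to 879 to 1008 CPM in daf-2 nuclei, 884 to 1001 CPM in wild-type nuclei, 1439 to 2114 CPM in daf-2 worms and 1540 to 2761 CPM in wild-type worms. The daf-2 worm lysate was unlike the 16 h controls, which are whole animals of the same strain. In those controls germ cell markers summed to 5037 to 6510 CPM and intestine markers to 36737 to 92227 CPM. Body wall muscle markers summed to 2203 to 2356 CPM there. The controls were normalized separately, and the cause of this gap was not tested. Of the 9 muscle markers 2 were higher and 7 lower in daf-2 nuclei, and 0 were higher and 7 lower in wild-type nuclei, while of 10 intestine markers 0 were higher in nuclei of either genotype, 9 were lower in daf-2 nuclei and 7 in wild-type nuclei. Of 59 sperm genes 10 were higher and 12 lower in daf-2 nuclei, and 10 were higher and 5 lower in wild-type nuclei. Sperm genes summed to 737 to 1110 CPM in daf-2 nuclei and 620 to 822 CPM in daf-2 worms. In wild type they summed to 1408 to 1917 CPM in nuclei and 747 to 1192 CPM in worms. Of 6 neuron markers 2 were higher and 2 lower in daf-2 nuclei, and 0 were higher and 1 lower in wild-type nuclei. For 5 hypodermis markers these counts were 1 and 1, and 0 and 1. No marker of germ cells or body wall muscle was at 0 reads in a whole group, and 1 intestine marker was at 0 reads in all daf-2 nuclei libraries.

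The clearest difference among the synthetases was between germline nuclei and whole worm lysate, and it divided the family by compartment in part. Of the 32 genes, 24 passed the threshold in daf-2(e1370), 6 higher and 18 lower in nuclei, where 53.3% of all genes passed (21.3% higher and 32% lower). In wild type 16 of 32 passed, 5 higher and 11 lower in nuclei, where 35.3% of all genes passed (15.9% higher and 19.4% lower). Among cytosolic genes, 2 were higher and 10 lower in daf-2 nuclei, and 1 was higher and 6 were lower in wild-type nuclei, with a median log2 fold change of -1.28 in daf-2(e1370) and -0.67 in wild type. Among the 12 mitochondrial genes, 4 were higher in nuclei of each genotype, while 6 were lower in daf-2 nuclei and 3 in wild-type nuclei, with medians of -0.31 and 0.04. The median over all genes tested was -0.63 in daf-2(e1370) and -0.34 in wild type, so that the mitochondrial medians lay above it and the cytosolic medians below it. Of the genes serving both compartments, kars-1 and hars-1 were lower in nuclei of both genotypes, and neither gars-1 nor tars-1 passed.

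**Figure D1:**
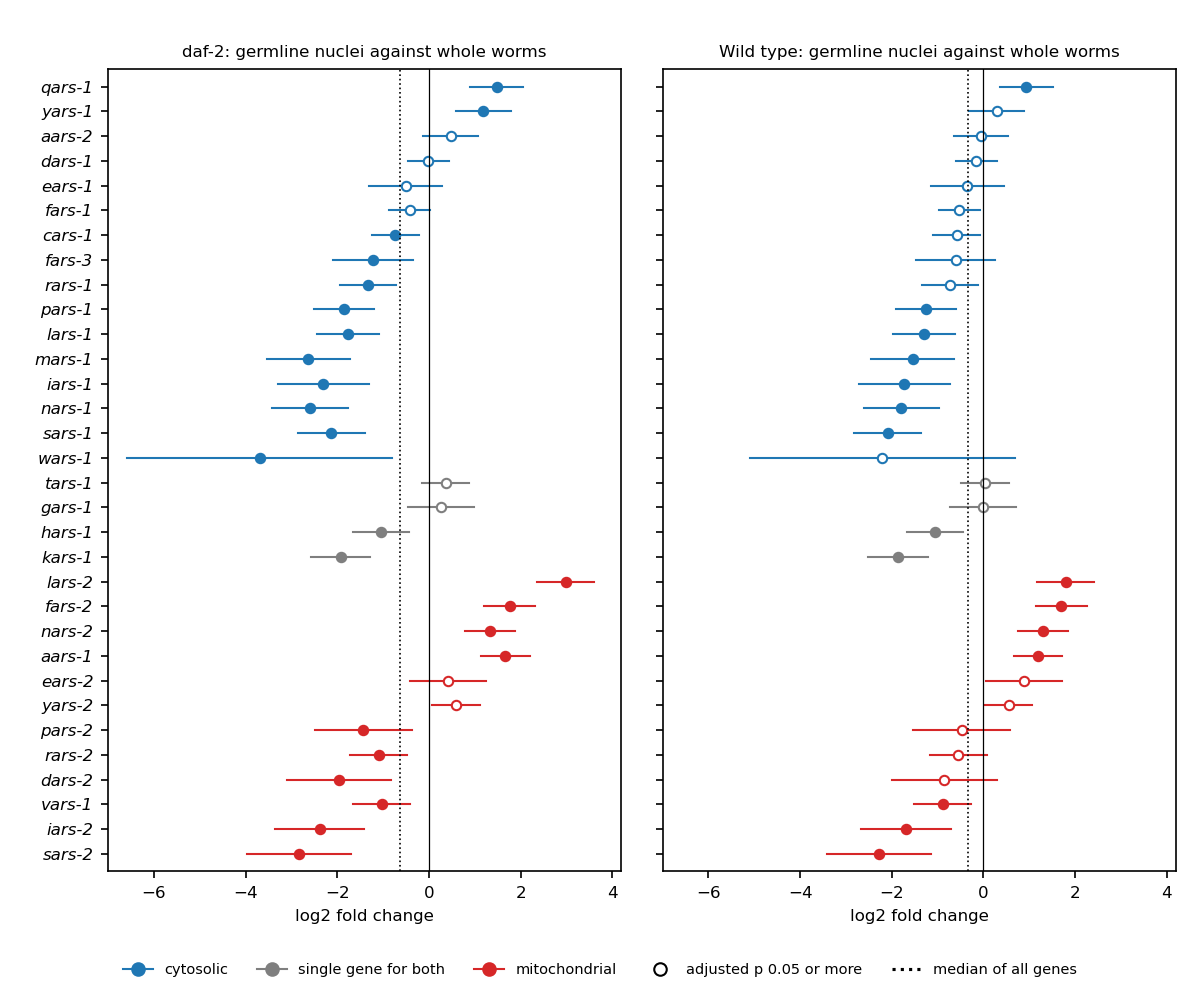
Log2 fold change (x axis) of the 32 synthetases (y axis, by compartment) in germline nuclei relative to whole worms, for daf-2(e1370) and wild type, with 95% intervals; filled points passed the threshold and the dotted lines mark the median of all genes tested. lars-2 stands farthest to the right at 2.98 in daf-2(e1370) and 1.79 in wild type, and the interval of wars-1, which had 0 reads in 1 library, is the widest.

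lars-2, the mitochondrial leucyl-tRNA synthetase (WBcel235 chromosome I, 7457152 to 7460756, minus strand), was the highest synthetase in nuclei. It measured 502, 343 and 376 CPM in daf-2 nuclei, against 68.3, 42.5 and 45.2 CPM in daf-2 worms, and 389, 283 and 240 CPM in wild-type nuclei, against 125, 67.7 and 74.8 CPM in wild-type worms. Every nuclei library was above every worm library. The log2 fold change was 2.98 ± 0.29 (SE) in daf-2(e1370) (limma adjusted p = 2.19e-06) and 1.79 ± 0.29 in wild type (limma adjusted p = 0.00039). Scaled to coding length, lars-2 ranked 1 of 32 in nuclei of both genotypes, at 158 CPM per coding kb in daf-2 nuclei and 118 CPM per coding kb in wild-type nuclei, but 18 of 32 in daf-2 worms and 9 of 32 in wild-type worms. Its cytosolic counterpart lars-1 (chromosome III, 4181549 to 4186801, minus strand) went the other way. It measured 41.3, 44.7 and 18.3 CPM in daf-2 nuclei, against 92.1, 122 and 118 CPM in daf-2 worms, and 44.0, 52.3 and 33.3 CPM in wild-type nuclei, against 94.1, 123 and 100 CPM in wild-type worms (log2 fold changes of -1.76 and -1.31, limma adjusted p = 0.00038 and 0.0056).

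Asparagine showed the same division, and phenylalanine showed it in part, mainly through its mitochondrial gene. fars-2, the mitochondrial phenylalanyl enzyme, measured 127, 93.2 and 132 CPM in daf-2 nuclei, against 40.5, 31.9 and 31 CPM in daf-2 worms, a log2 fold change of 1.76. In wild type it measured 91.3, 81.9 and 132 CPM in nuclei, against 36.1, 33.6 and 23.7 CPM in worms, a log2 fold change of 1.70. The cytosolic phenylalanyl enzyme is built from 2 kinds of subunit, encoded by fars-1 and fars-3. Neither passed in wild type, at -0.53 and -0.60, whereas fars-3 was lower in daf-2 nuclei at -1.22 and fars-1 had a value of -0.42 there without passing. nars-2, the mitochondrial asparaginyl enzyme, measured 43.0, 56.4 and 68.1 CPM in daf-2 nuclei, against 24.0, 23.3 and 18.7 CPM in daf-2 worms, and 46.5, 66.0 and 52.2 CPM in wild-type nuclei, against 26.0, 18.6 and 22 CPM in wild-type worms. The cytosolic nars-1 measured 15.1, 25.9 and 8.53 CPM in daf-2 nuclei, against 105, 87.2 and 80.5 CPM in daf-2 worms, and 44.9, 22 and 27.8 CPM in wild-type nuclei, against 108, 141 and 74.9 CPM in wild-type worms. The groups of nars-1 and of nars-2 were thus separate in both genotypes, in opposite directions (nars-1 at -2.59 and -1.79, nars-2 at 1.33 and 1.30).

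The fourth mitochondrial gene higher in nuclei was aars-1, the alanyl enzyme, at 115, 132 and 122 CPM in daf-2 nuclei, against 46.3, 35.1 and 35.4 CPM in daf-2 worms. In wild type it measured 103, 139 and 150 CPM in nuclei and 77.5, 45.3 and 52.1 CPM in worms (log2 fold changes of 1.67 and 1.19). Its cytosolic counterpart aars-2 did not pass in either genotype, at 0.47 and -0.05. The cytosolic genes higher in nuclei were qars-1 and yars-1, the glutaminyl and tyrosyl enzymes. qars-1 measured 291, 176 and 188 CPM in daf-2 nuclei, against 85.2, 73.1 and 71.7 CPM in daf-2 worms (1.48, limma adjusted p = 0.00045), and 238, 151 and 126 CPM in wild-type nuclei, against 103, 77.1 and 81.8 CPM in wild-type worms (0.93, limma adjusted p = 0.016). The call of qars-1 in wild type was lost without the first nuclei library, without the second or the third worm library, and without the variance trend (adjusted p of 0.0515 to 0.0726 over these, and of 0.0020 to 0.65 over all 14 alternatives). yars-1 passed in daf-2(e1370) alone, at 28.9, 44.5 and 63.9 CPM in daf-2 nuclei against 17.5, 19.9 and 20.0 CPM in daf-2 worms (1.18), while wild-type nuclei held 37.8, 43.0 and 35.1 CPM and wild-type worms 33.1, 34.1 and 27.7 CPM (0.29). Its mitochondrial counterpart yars-2 passed in neither genotype, at 0.59 and 0.55. Whether the nuclei to worms difference of yars-1 differed between genotypes is given by the interaction term below, which did not pass.

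Some mitochondrial genes were instead among the most reduced in nuclei. sars-2, the mitochondrial seryl enzyme, measured 4.64, 6.02 and 1.95 CPM in daf-2 nuclei, against 30.4, 25.7 and 25.3 CPM in daf-2 worms, and 5.36, 1.57 and 4.66 CPM in wild-type nuclei, against 12.7, 22.8 and 15.5 CPM in wild-type worms (log2 fold changes of -2.83 and -2.28). The cytosolic seryl gene sars-1 was lower as well, at 14.4, 34.9 and 15.4 CPM in daf-2 nuclei, against 85.9, 93 and 81.2 CPM in daf-2 worms, and 26.8, 26.3 and 17.9 CPM in wild-type nuclei, against 78.0, 143 and 85.9 CPM in wild-type worms (-2.13 and -2.08). The isoleucyl pair behaved in the same way, with iars-2 at -2.38 in daf-2(e1370) and -1.69 in wild type and the cytosolic iars-1 at -2.30 and -1.72. For serine and isoleucine both members of the pair were therefore lower in nuclei.

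**Figure D2:**
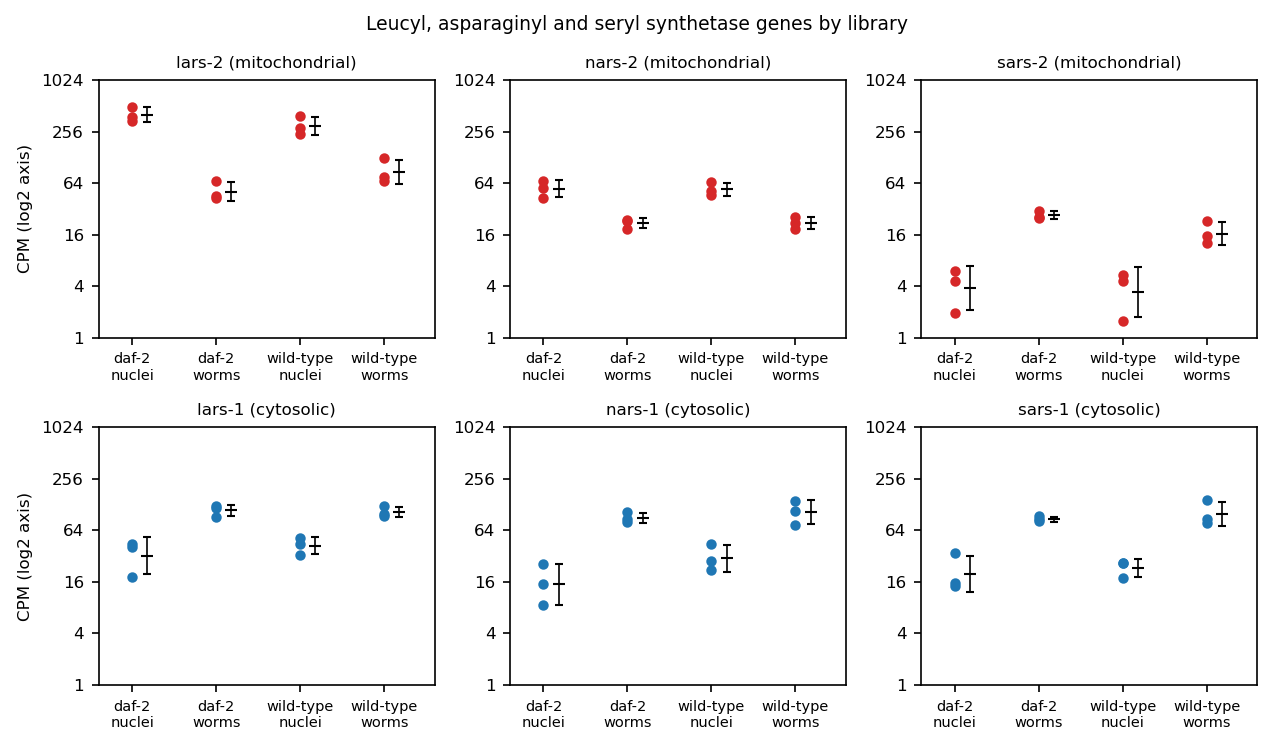
CPM in each library (log axis) of the leucyl, asparaginyl and seryl pairs, mitochondrial and cytosolic gene, in the 4 groups of germline nuclei and whole worms; each point is 1 library, and the bars give the mean and SD of log2 CPM. lars-2 and nars-2 lie above their cytosolic counterparts in nuclei, whereas sars-2 and sars-1 are both below their worm levels in nuclei.

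Of the other cytosolic genes, mars-1, the methionyl enzyme, was at 8.70, 8.55 and 5.71 CPM in daf-2 nuclei and 32.2, 58.6 and 53.5 CPM in daf-2 worms, and at 5.74, 6.48 and 9.44 CPM in wild-type nuclei and 10.7, 34.4 and 23.6 CPM in wild-type worms (-2.63 and -1.54). pars-1, the prolyl enzyme, was lower at -1.85 in daf-2(e1370) and -1.25 in wild type, while its mitochondrial counterpart pars-2 was lower in daf-2 nuclei at -1.43 and did not pass in wild type at -0.48. kars-1, the lysyl enzyme of both compartments, was lower at -1.93 in daf-2(e1370) and -1.86 in wild type, and hars-1, the histidyl enzyme, at -1.04 and -1.06. The mitochondrial valyl gene vars-1 was lower at -1.03 in daf-2(e1370) and at -0.89 in wild type, where 7 of 14 other settings kept the call. glp-4, the cytosolic valyl gene outside the rule, had values of -0.77 and -1.48. wars-1, the tryptophanyl enzyme, measured 8.15, 6.05 and 0.0672 CPM in daf-2 nuclei, against 15.3, 21 and 22.3 CPM in daf-2 worms, the lowest of these being the value that stands for 0 reads. Its fitted change of -3.69 (limma adjusted p = 0.032) rests on that library, and without it the change was -1.46 (adjusted p = 0.088, in a range of 0.0054 to 0.12 over 14 alternatives). The remaining genes lower in daf-2 nuclei were rars-1, rars-2, dars-2 and cars-1, at -1.34, -1.10, -1.96 and -0.74. The call was lost in some fits that left out 1 library also for cars-1, fars-3 and pars-2 in daf-2(e1370) and for iars-1, mars-1 and hars-1 in wild type, and without the second wild-type worm library 11 of 32 genes passed in wild type.

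The direction of these differences relative to all RNA depended on how the libraries were scaled. With values scaled to the reads outside ribosomal RNA genes, the median of all genes was -1.76 in daf-2(e1370) and -1.15 in wild type, and the split of the 32 genes became 1 higher and 23 lower in daf-2(e1370) and 2 higher and 22 lower in wild type. Under that scaling lars-2 was still higher in nuclei of both genotypes (1.86 and 0.98), and fars-2 was higher in wild type (0.89) and at 0.64 in daf-2(e1370) without passing. aars-1, nars-2, qars-1 and yars-1 no longer passed, with values of 0.06 to 0.54, while gars-1 and tars-1, which had not passed before, were lower in nuclei of both genotypes at -0.86 to -0.76. The cytosolic ears-1 (-1.63 and -1.16), fars-1 (-1.54 and -1.34) and dars-1 (-1.14 and -0.97) likewise became lower in daf-2(e1370) and wild type. In wild type alone aars-2, cars-1, dars-2, fars-3, rars-1 and rars-2 were newly lower, at -1.67 to -0.86. The medians of the cytosolic genes were -2.41 and -1.48, and those of the mitochondrial genes -1.44 and -0.77, in daf-2(e1370) and in wild type. In these bulk samples, fewer cells of a type and less RNA per cell cannot be told apart, nor can they be told apart from RNA that remained in the cytoplasm, and the part of intestine and muscle RNA in the worm libraries was not tested.

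A measure that does not depend on scaling is the share of summed synthetase CPM taken by the 12 mitochondrial genes. It was 42.4 to 52.9% in daf-2 nuclei, against 20.4 to 26.0% in daf-2 worms, and 40.4 to 49.5% in wild-type nuclei, against 19 to 26.3% in wild-type worms. lars-2 alone took 18.9 to 24.8% in daf-2 nuclei, against 2.33 to 4.14% in daf-2 worms, and 15.1 to 20.5% in wild-type nuclei, against 3.40 to 7.03% in wild-type worms. With lars-2 left out, the mitochondrial genes still took 28.3 to 38.0% in daf-2 nuclei, against 18.5 to 22.8% in daf-2 worms, and 25.1 to 40.5% in wild-type nuclei, against 16.1 to 20.7% in wild-type worms. The nuclei and worm libraries did not overlap in any of these shares. Summed shares weigh the most abundant genes most. The log2 ratio of the cytosolic to the mitochondrial median per coding kb is also free of scaling. It was -0.06, 0.63 and -0.43 in daf-2 nuclei, against 0.50, 1.03 and 1.01 in daf-2 worms, with overlap. In wild type it was 0.33, 0.12 and -0.36 in nuclei, against 0.726, 0.997 and 0.776 in worms, without overlap. In all 12 depletion libraries the mitochondrial share was 12.5 to 15%. This is below the 20.4 to 26.0% of daf-2 worm lysate, although both are whole animals of strain JTL642. As a share it does not depend on the separate normalization, and the cause of this difference was not tested.

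**Figure D3:**
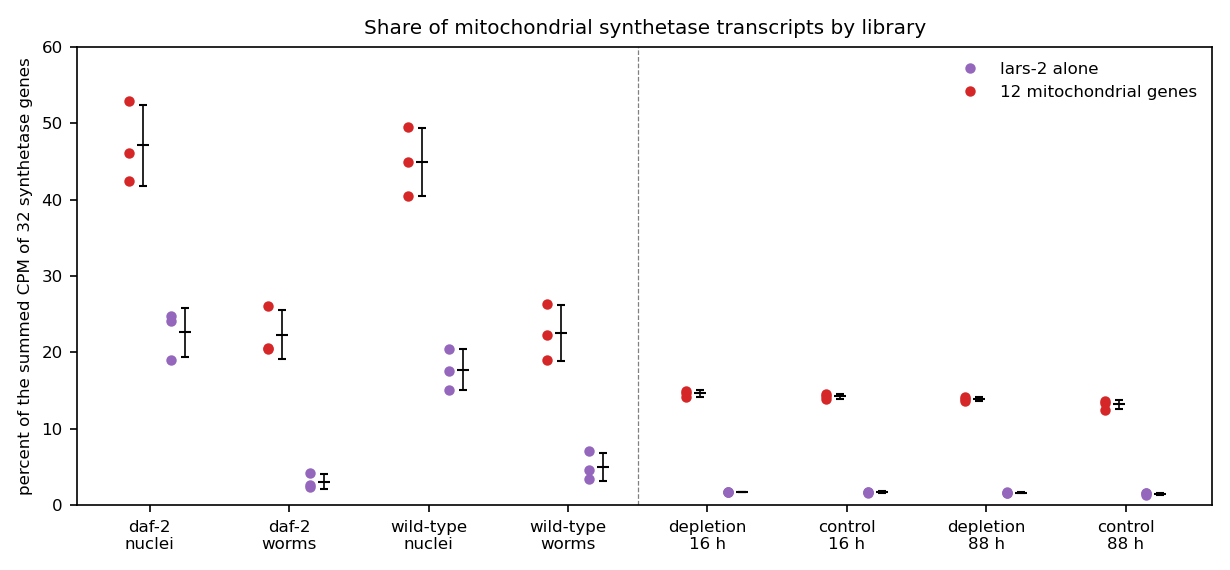
Share (%) of the summed CPM of 32 synthetases taken by the 12 mitochondrial genes and by lars-2 alone, in the 8 groups; points are libraries, bars the mean and SD of 3, and the dashed line separates the 2 tables. The mitochondrial share is 40.4 to 52.9% in nuclei, 19 to 26.3% in worms and 12.5 to 15% in the depletion table.

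Within each amino acid, the log2 ratio of the mitochondrial to the cytosolic gene is likewise independent of scaling, with fars-1 taken as the cytosolic gene for phenylalanine. In daf-2(e1370) the ratios of nuclei and worms did not overlap for 7 of 11 amino acids, with a gain in nuclei for leucine (4.75), asparagine (3.92), phenylalanine (2.18), alanine (1.20) and proline (0.42) and a loss for aspartate (-1.95) and tyrosine (-0.59). In wild type they did not overlap for 6 of 11, and all 6 were gains: leucine at 3.10, asparagine at 3.09, phenylalanine at 2.23, glutamate at 1.24, alanine at 1.23 and proline at 0.78. Among all single genes, 24.2% were higher and 36.5% lower in daf-2 nuclei than in daf-2 worms without overlap. In wild type these shares were 22.3% and 29.3%, so the number of separate ratios alone does not set the pairs apart. The leucine ratio was 3.6, 2.94 and 4.36 in daf-2 nuclei, against -0.43, -1.52 and -1.38 in daf-2 worms, and 3.15, 2.44 and 2.85 in wild-type nuclei, against 0.41, -0.86 and -0.43 in wild-type worms. The loss for aspartate in daf-2(e1370) came with dars-2, the mitochondrial aspartyl gene, at 1.74, 4.24 and 7.75 CPM in daf-2 nuclei and 20.1, 14.6 and 11.5 CPM in daf-2 worms, while the cytosolic dars-1 was at -0.01. With fars-3 in place of fars-1 the gain for phenylalanine was 2.98 in daf-2(e1370) and 2.30 in wild type, again without overlap. For arginine, isoleucine and serine the ratios of nuclei and worms overlapped in both genotypes.

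**Figure D4:**
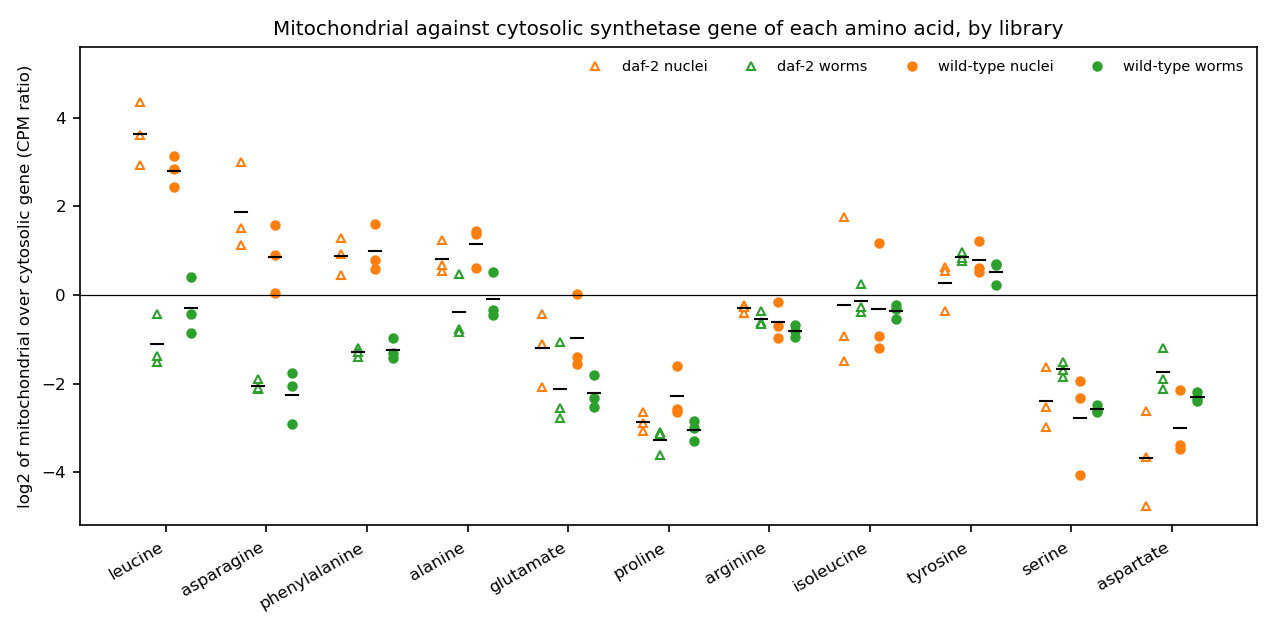
Log2 ratio of mitochondrial to cytosolic CPM for 11 amino acids in the nuclei and worm libraries, 1 point per library with the mean of each group as a bar. Leucine shows the widest separation, by 4.75 in daf-2(e1370) and 3.10 in wild type, and the isoleucine and serine ratios overlap between nuclei and worms.

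Scaled to coding length, the levels of the family spanned a wide range in every group. After lars-2, the highest in nuclei were qars-1 and fars-2. The lowest were dars-2 in daf-2 nuclei and mars-1 in wild-type nuclei, each at 2.6 CPM per coding kb. In daf-2 worms the highest was pars-1 at 61.7 CPM per coding kb and the lowest was pars-2 at 8.1, and in wild-type worms the highest was sars-1 at 70.1 and the lowest dars-2 at 5.2. In all 4 groups of the depletion table tars-1, the threonyl enzyme of both compartments, was the highest, and ears-2, the mitochondrial glutamyl enzyme, was the lowest.

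Other genes around charged tRNA and translation were counted in the same way, beside shares of all genes of 21.3% higher and 32% lower in daf-2(e1370) and 15.9% higher and 19.4% lower in wild type, and medians of -0.63 and -0.34. Of 10 partners of charged tRNA (elongation factors of both compartments and tRNA exporters), 0 were higher and 9 were lower in daf-2 nuclei (median -2.37), and 0 were higher and 4 lower in wild-type nuclei (median -1.37), while eef-1G, a subunit of elongation factor 1, had values of 0.30 and 0.20 without passing. tufm-1 and tufm-2, the mitochondrial elongation factors Tu that carry charged tRNA to the mitochondrial ribosome, were at -2.13 and -2.61 in daf-2(e1370) and -1.26 and -2.40 in wild type. Of 81 cytosolic ribosomal protein genes, 4 were higher and 45 lower in daf-2 nuclei (median -0.96) and 2 were higher and 35 lower in wild-type nuclei (median -0.57). Of 70 mitochondrial ribosomal protein genes, 15 were higher and 20 lower in daf-2 nuclei (median -0.23) and 8 were higher and 18 lower in wild-type nuclei (median -0.38). Of 12 measured genes of amino acid starvation signalling, 4 were higher in nuclei of both genotypes, namely gcn-2, the kinase that senses uncharged tRNA, gcn-1, its co-activator on the ribosome, and let-363 and daf-15, the TOR kinase and its partner Raptor. A further 5 were lower in each genotype, among them atf-4, at -1.95 and -1.91, and the intestinal peptide transporter gene pept-1, at -3.64 and -2.44.

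To ask about reduced insulin/IGF-1 signaling, the daf-2(e1370) strain JTL642 was compared with JTL621 in each material. JTL621 also carried unc-119(ed3), and its part in this comparison was not tested. In nuclei 0 of 32 synthetases passed with limma, where 3.85% of all genes passed, and 0 of 32 had an unadjusted p under 0.05, where 20.9% of all genes did. The log2 fold changes were -1.51 to 0.43, with medians of -0.27 for cytosolic and -0.03 for mitochondrial genes beside -0.15 for all genes. Leaving out 1 library moved the cytosolic median between -0.40 and 0.04, the positive value without the third daf-2 nuclei library, and the mitochondrial median between -0.25 and 0.01, the positive value without the third wild-type nuclei library. The share of all genes that passed rests on single libraries too, since 524 genes passed in all, 0 without the first, the second or the third daf-2 nuclei library, and 645 higher and 1146 lower with all 12 libraries in the fit. The smallest adjusted p was that of nars-1 (limma, 0.27), at 15.1, 25.9 and 8.53 CPM in daf-2 nuclei and 44.9, 22 and 27.8 CPM in wild-type nuclei, groups that overlapped. The 95% intervals reached 0.81 to either side of the estimate for the median synthetase, and 4.79 for wars-1. These intervals are not adjusted for the number of genes, so changes somewhat larger than that could also go uncalled in these nuclei. For example, the elongation factor gene eef-1B.1 had a value of -1.03 there without passing (limma adjusted p = 0.10). The 81 cytosolic ribosomal protein genes all had negative values there (median -0.83), of which 4 passed.

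In whole worms, 0 of 32 passed with limma, where 18% of all genes passed, and 6 had an unadjusted p under 0.05, where 36.4% of all genes did. These were mars-1 (1.18), sars-2 (0.71), dars-2 (0.70) and rars-2 (0.56) with positive values and lars-2 (-0.76) and yars-1 (-0.72) with negative ones. yars-1 measured 17.5, 19.9 and 20.0 CPM in daf-2 worms against 33.1, 34.1 and 27.7 CPM in wild-type worms, and the groups did not overlap (limma adjusted p = 0.064). lars-2 measured 68.3, 42.5 and 45.2 CPM in daf-2 worms against 125, 67.7 and 74.8 CPM in wild-type worms, and 1 library of each group overlapped with the other (limma adjusted p = 0.11). sars-2 measured 30.4, 25.7 and 25.3 CPM in daf-2 worms against 12.7, 22.8 and 15.5 CPM in wild-type worms, without overlap (limma adjusted p = 0.10). The ratio of mitochondrial to cytosolic gene did not overlap for serine (0.90), aspartate (0.57), tyrosine (0.33) and arginine (0.26), in each case higher in daf-2 worms, and it overlapped for the other 7. Among all single genes, 18.4% were higher and 21.6% lower in daf-2 worms than in wild-type worms without overlap. Without the second wild-type worm library mars-1 and sars-2 passed. Over all 13 alternatives mars-1 passed in 2 and sars-2, lars-2 and yars-1 in 1 each, and the limma adjusted p was 0.0037 to 0.23 for mars-1, 0.035 to 0.52 for sars-2, 0.018 to 0.33 for lars-2 and 0.037 to 0.20 for yars-1. Among the 12 measured genes of amino acid starvation signalling, pept-1 (0.95) and raga-1 (0.86), which encodes a Rag GTPase of TOR signaling, were higher and gcn-1 (-1.24) was lower in daf-2 worms. The direction of pept-1 is opposite to that in the paper, where RT-qPCR in late larvae gave a lower level in daf-2(e1370). The lysates came from young adults, and the part of stage or method was not tested. Between daf-2 controls, pept-1 was higher at 88 h than at 16 h (1.23, limma adjusted p = 0.016). glp-4, the cytosolic valyl gene outside the rule, passed as well, at 32.6, 53.2 and 51.3 CPM in daf-2 worms against 93.3, 155 and 93.8 CPM in wild-type worms, without overlap (-1.31, limma adjusted p = 0.018). In the same comparison 6 of 10 intestine markers were higher and 1 lower, and 1 of 59 sperm genes was higher and 9 were lower, and their part in these values was not tested.

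The change with daf-2(e1370) was then compared between nuclei and worms by an interaction term. Again 0 of 32 passed with limma, where 0.103% of all genes passed, and 2 had an unadjusted p under 0.05, where 12.2% of all genes did. They were lars-2 (1.19, 95% interval 0.31 to 2.07, limma adjusted p = 0.24, with 0.048 to 0.52 over 19 alternatives, of which 1 passed) and yars-1 (0.90, 95% interval 0.05 to 1.74, limma adjusted p = 0.38). For lars-2 the log2 fold change with daf-2(e1370) was 0.43 in nuclei and -0.76 in worms, and for yars-1 it was 0.17 in nuclei and -0.72 in worms.

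**Figure D5:**
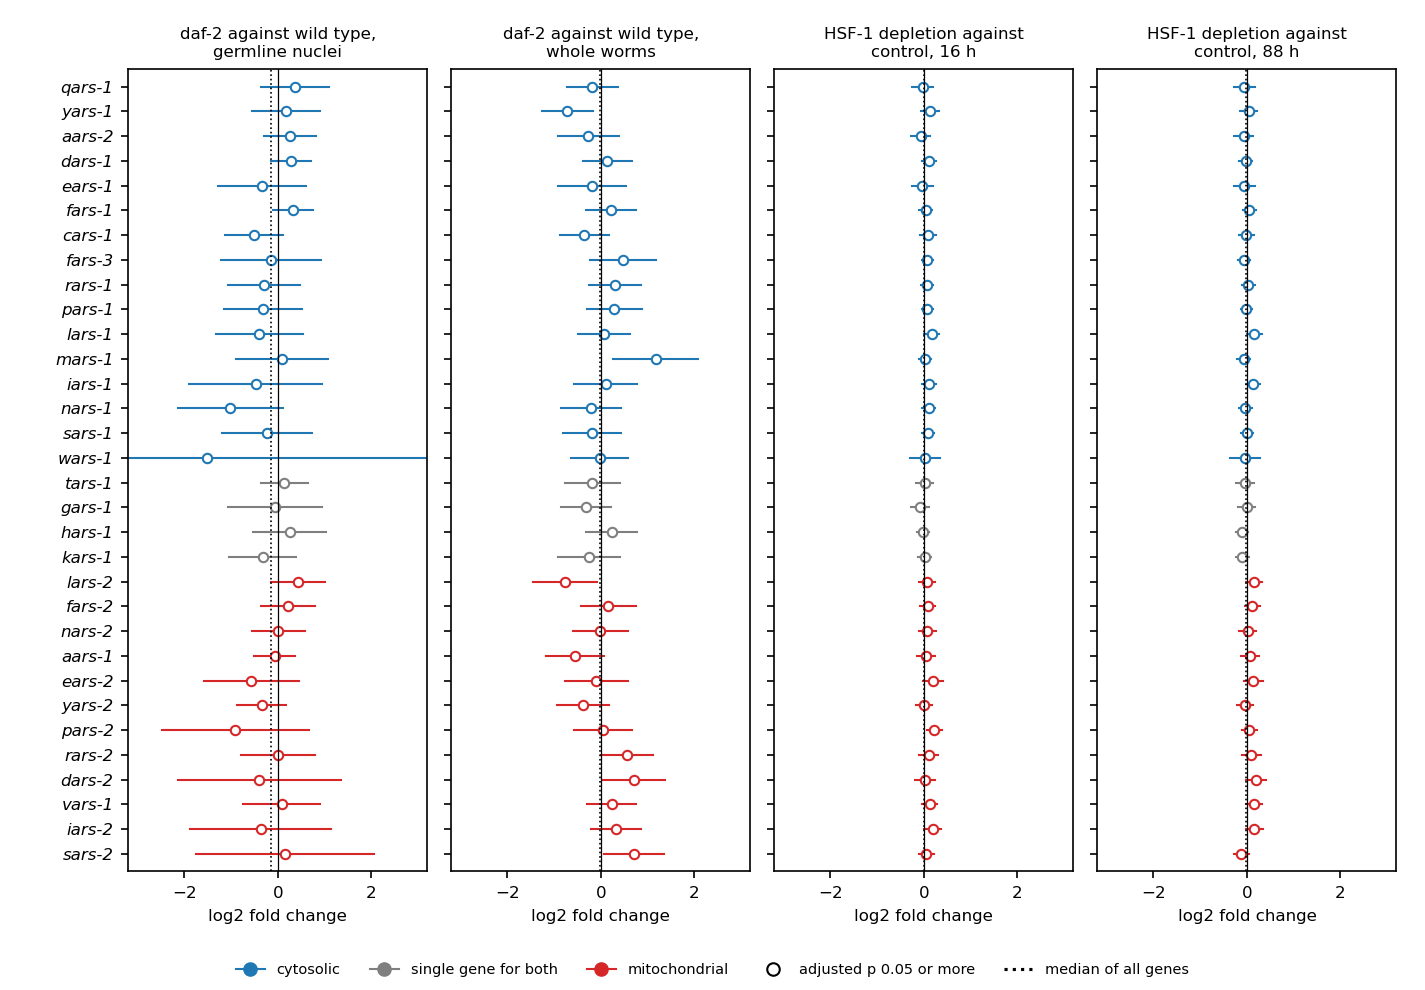
Log2 fold changes (x axis) with 95% intervals for the 32 synthetases (y axis) in 4 comparisons, daf-2(e1370) relative to wild type in nuclei and in worms and HSF-1 depletion relative to control at 16 h and 88 h; no point is filled, as 0 of 32 passed in each. The interval of wars-1 in nuclei, -6.30 to 3.27, runs past the axis, and every depletion estimate lies between -0.12 and 0.22.

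HSF-1 depletion from the germline left every synthetase close to its control level in whole daf-2(e1370) animals. RNA came from whole animals, so levels in the germline alone were not measured. The groups hold no auxin treatment without depletion. The paper removed genes that respond to auxin with a list from its earlier study, and no such list was applied here. The mRNA of hsf-1 is no check of the depletion, since auxin removes the protein. At 16 h, 0 of 32 passed with limma, where 0.0792% of all genes passed, and 3 had an unadjusted p under 0.05, where 4.43% of all genes did. The estimates were -0.08 to 0.22, and the farthest end of any 95% interval was 0.41 from 0. Positive values were held by 26 of 32 synthetases, against 51.9% of all genes, with medians of 0.07 for cytosolic and 0.08 for mitochondrial genes beside 0.01 for all genes. In 7 of 32 every depletion library was above every control library, where this held for 7.02% of all genes, and in 0 of 32 every one was below, where it held for 3.85%. The 3 were pars-2 (0.22), iars-2 (0.19) and lars-1 (0.16). pars-2 measured 28.5, 29.4 and 29.7 CPM upon depletion against 24.5, 25.8 and 24.6 CPM in controls. lars-1 measured 366, 387 and 376 CPM upon depletion against 315, 352 and 342 CPM in controls. The groups did not overlap for either gene, yet both had a limma adjusted p of 1.

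At 88 h, 0 of 32 passed with limma, where 0.103% of all genes passed, and 1 had an unadjusted p under 0.05, where 5.95% of all genes did. It was again lars-1, at 353, 391 and 365 CPM upon depletion against 307, 341 and 345 CPM in controls (0.16, limma adjusted p = 0.83). The estimates were -0.12 to 0.19, and the farthest end of any 95% interval was 0.40 from 0. Of the mitochondrial genes, 10 of 12 had positive values (median 0.10), and of the cytosolic genes 5 of 16 (median -0.02), beside a median of -0.02 for all genes. lars-2 measured 81.0, 80.5 and 83.0 CPM upon depletion against 64.8, 77.5 and 78.1 CPM in controls, without overlap (0.15, limma adjusted p = 0.86). All 81 cytosolic ribosomal protein genes had negative values at 88 h (median -0.31), and 0 of them passed.

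Between the control groups, 88 h animals were compared with 16 h animals, and these share their libraries with the depletion comparisons. The 16 h animals were picked onto ethanol plates as young adults, whereas the 88 h animals grew there from egg lay to gravid adults. Age, handling and length of ethanol exposure thus cannot be told apart. Of the 32 synthetases 0 passed with limma, where 9.89% of all genes passed, and 2 had an unadjusted p under 0.05, where 33.2% of all genes did. They were lars-2, at 64.8, 77.5 and 78.1 CPM in 88 h controls against 84.9, 90.8 and 83.0 CPM in 16 h controls (-0.24, limma adjusted p = 0.064), and rars-2, the mitochondrial arginyl enzyme, at 63.8, 80.4 and 79.6 CPM in the 88 h animals against 81.1, 88.0 and 87.1 CPM in those of 16 h (-0.20, limma adjusted p = 0.14). Of the mitochondrial genes 11 of 12 had negative values (median -0.14), beside 7 of 16 cytosolic genes (median 0.00). In the same comparison 6 of 9 body wall muscle markers and 16 of 52 sperm genes were higher at 88 h, and their part in these values was not tested.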

How the data were processed

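The authors deposited log2 CPM, computed with edgeR from paired-end reads of directional libraries aligned by STAR to WBcel235 (ce11). Multi-mapped and overlapping reads were shared as fractions by featureCounts, and low genes were filtered by the authors. The strand setting is not given in the sources used here, so reads of antisense neighbours may be shared. Exons of the synthetases overlap other genes by under 6% in every case except pars-2, which shares 9.8% with a gene on the same strand. The depth of each library was recovered from the steps between its low values, and the lowest value of a table stands for 0 reads.

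A filter of 1 CPM or more in 25% or more of the libraries left 13613 and 12634 genes, all 32 synthetases among them. The tests were two-sided and came from limma 3.58.1 in R 4.3.3, with moderated variances that follow a trend, and were adjusted by Benjamini-Hochberg over the genes left. The daf-2(e1370) comparisons used 6 libraries each, and the others all 12 of a table. Synthetase calls are named in full or by the largest and smallest changes, with both genes of a pair. Members and lists were chosen with earlier results of these data known. The fit was tested on simulated data. Tables were made in Python 3.11.15 with pandas 2.3.3, numpy 2.4.6 and matplotlib 3.10.9. The alternatives were another scaling, no filter, a pseudocount of 1 CPM, other sample sets, no variance trend, a replicate block and leaving out each library. A block per pair, scaling to the reads outside ribosomal RNA genes and a fit without the second nuclei library of both genotypes were added after the data were seen. The main fits used no block, so their intervals and calls are unpaired. Equal replicate numbers were taken as pairs where deviations from the group means correlated above 0.1 in every pair. This held for depletion at 16 h (0.62, 0.56 and 0.12), at 88 h (0.66, 0.27 and 0.28) and for wild-type nuclei and worms (0.12, 0.11 and 0.14). For daf-2 nuclei and worms equal numbers gave 0.073, 0.097 and 0.088, against -0.055 to -0.035 for unequal numbers. The block per pair was fitted to these libraries as well. Compartments follow textbook knowledge. Promoter and protein sequences were not analysed here.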

Additional observations from a re-analysis of the deposited data

How the results depend on the processing

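With replicate number as a block, 3 synthetases (mars-1, lars-2 and yars-1) passed for daf-2(e1370) against wild type in worms, 1 (lars-2) for the interaction and 1 (lars-2) for 88 h against 16 h, where 0 passed without it. In these comparisons the libraries share only a number, as deviations of equal numbers correlated at 0.0047 to 0.041 for daf-2 and wild-type nuclei, -0.094 to 0.23 for daf-2 and wild-type worms and 0.047 to 0.43 for 88 h and 16 h controls. The block for each pair raised the count for wild-type nuclei against worms to 17 by adding rars-1 and changed no other synthetase call. Leaving out 1 library gave 0 to 2 synthetases for daf-2(e1370) in worms, 11 to 16 for wild-type nuclei against worms and 20 to 26 for daf-2 nuclei against worms. In the same fits the cytosolic median ranged from -0.97 to -0.56 for wild-type nuclei against worms and from -0.044 to 0.026 for 88 h against 16 h, and the mitochondrial median from 0.057 to 0.13 for depletion at 16 h. Without the second nuclei library of both genotypes, the mitochondrial median for daf-2(e1370) in nuclei was -0.29. Scaled to the reads outside ribosomal RNA genes, cytosolic medians were -2.41 (daf-2 nuclei against worms) and -1.48 (wild type), mitochondrial medians -1.44 and -0.77, and the mitochondrial median of the interaction -0.63. That scaling moves all genes of a comparison together. Under it tars-1 in daf-2 nuclei (-0.76) and wild-type nuclei (-0.77) and gars-1 in daf-2 nuclei (-0.86) turned negative and passed, and aars-2, ears-2 and yars-2 in daf-2 nuclei and yars-1 and yars-2 in wild-type nuclei turned negative without passing. The cause of these changes was not tested. Over all genes, 524 passed for daf-2(e1370) in nuclei and 0 with the block, and 1250 for 88 h against 16 h and 0 when fitted to those groups alone. Depth limits nuclei most, with 5.13 to 8.66 M reads outside ribosomal RNA genes.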

Other observations

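The genes higher in nuclei had a larger intron share of their annotated span than those lower in nuclei, a description made after the values were seen. It was 24.2 to 88.9% (median 61.6%) for the 6 genes higher in daf-2 nuclei and 7.17 to 69.0% (median 18.1%) for the 18 lower. In wild type it was 24.2 to 88.9% (median 46.7%) for 5 genes and 7.17 to 39.3% (median 15.6%) for 11. For the genes that did not pass, the median was 19.8% in daf-2(e1370) and 25.9% in wild type, where it reached 76.6%. Across all 32 genes the log2 fold change and the intron share had a Pearson r of 0.28 in daf-2(e1370) and 0.36 in wild type. Across 13004 genes with an intron it was 0.12 and 0.13. With log2 of the intron length, r was 0.29 and 0.35 for the 32 genes and 0.10 and 0.12 for the 13004, where genes are not independent replicates.

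Over the 8 group means, the genes whose pattern was most like the mean of the cytosolic synthetases were sax-1, W06E11.1, trxr-1, tmed-12 and C25H3.7, ranked by Pearson r among 11997 genes, the lowest r of the 5 being 0.998. For the mean of the mitochondrial synthetases they were T14F9.2, F35G12.5, T01H3.2, F13G3.6 and vps-25, with r of 0.85 to 0.90. The 8 points come from 2 tables normalized separately, each centred on its own mean. For cytosolic genes the median log2 fold change of nuclei against worms was -1.28 in daf-2(e1370) and -0.67 in wild type. For depletion it was 0.07 at 16 h and -0.02 at 88 h. The r for cytosolic genes thus rests mainly on the 4 groups of nuclei and worms.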
